A study of Mus musculus with 4 samples.

Results

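Embryonic thymospheres are spheres that grew from digested mouse fetal thymus in suspension, and they were represented by the 2 samples whose titles name them, out of 4 samples in the whole series. Both came from C57Bl6/N embryos at embryonic day 14.5. The digest was kept in ultra low attachment dishes, to which few cells stick, in a medium with B27 supplement, hydrocortisone, insulin, epidermal growth factor and basic fibroblast growth factor. Fresh medium was given on day 5. On day 7 the spheres were caught on filters, washed free of single cells and lysed in TRIzol, and from each sample 25 ng of total RNA went into Cy3 labelling for a 1-colour Agilent array. The other 2 samples, spheres from adult thymus, were not used here. The labels mention replicates of both the biological and the technical kind but do not assign the arrays to either, so the spread between the 2 arrays may be partly technical. They state neither how many embryos went into a sample nor the sex of the embryos, and the digest was not sorted before plating, so each array reports on whatever mixture of cells the spheres held.

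The fetal thymus is an epithelial organ that buds from the pharyngeal endoderm. It is wrapped in mesenchyme derived largely from neural crest and is colonised by blood-borne lymphoid progenitors. The transcription factor Foxn1 is required for its epithelium to mature and to attract and instruct thymocytes, while keratins 8 and 18 mark simple and cortical epithelium and keratins 5 and 14 mark basal and medullary epithelium. Sphere culture in growth factors is used to enrich cells that survive and divide without attachment, and both epithelial and mesenchymal cells can do so.

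A level is given as log2 of the background-subtracted signal minus the log2 of the array's 75th percentile over 59305 non-control spots, so that 0 is the brightness of that percentile and a step of 1 is a factor of 2. Well above background is the scanner software's own call for a spot, and a gene was taken as measured when its probe had that call on both arrays. The spots with that call numbered 28657 (48.3%) on array 1 and 21176 (35.7%) on array 2, and the 75th percentile itself stood at 126 and 61.5 units of signal. The dimmest spot with that call had 14.2 units on array 1 and 18.7 on array 2. On the scale of levels the call therefore reached lower on array 1, and a call on array 1 alone need not mean a higher level there. No spot was saturated. Brightness depends on a probe's own sequence as well as on the amount of RNA, so a rank is a rank of signal and not of transcript number. In bulk RNA, fewer cells of a type and less RNA per cell cannot be told apart. With 2 samples of a single group there was no comparison to test, and no p-value is given.

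Of 55681 non-control probes, 19053 (34.2%) were well above background on both arrays. A gene symbol could be given to 28026 probes, which stand for 21154 genes, each taken at its brightest measured probe. Of these genes 11010, or 52.0%, were measured on both arrays, 2404 were above background on array 1 alone, 46 on array 2 alone and 7694 on neither. As a low reference from the same arrays, 20 of 1063 olfactory receptor genes were measured. With the stricter demand that every probe of a gene be well above background, 9228 genes, or 43.6%, qualified.

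The 2 arrays gave close levels for most genes. Across the 11010 measured genes, which are not independent replicates, Pearson's r between the arrays was 0.954 and Spearman's rho 0.950. The median absolute difference was 0.34, and 9832 genes (89.3%) lay within 1 unit of each other. Array 1 was higher by more than 1 unit for 740 genes, or 6.72%, and array 2 for 438, or 3.98%. Among the 100 brightest genes of each array 76 were shared, and among the 1000 brightest 829. Repeated spots of the same probe varied far less within an array, with a median SD of 0.09 on array 1 and 0.11 on array 2, against 0.20 between the arrays for 220 such probes. Lists of genes whose members differed between the arrays in one direction are described after the profile itself.

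**Figure D1:**
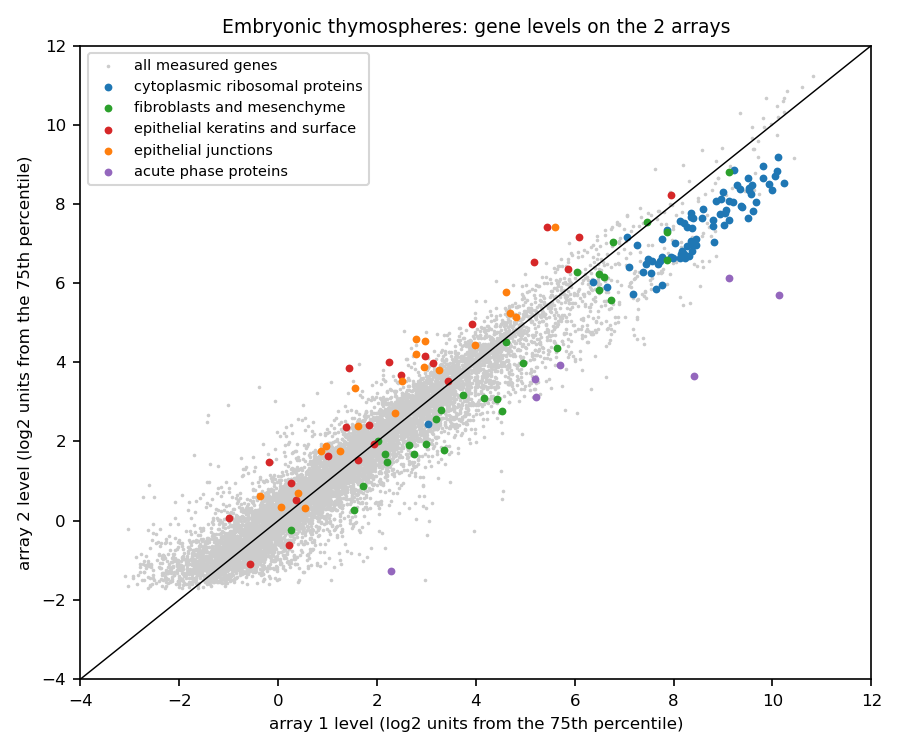
Level of each measured gene on array 2 against array 1, both in log2 units from the array's 75th percentile, with the line of equality. Grey points are all 11010 measured genes; ribosomal protein, fibroblast and acute phase genes lie mostly to the right of the line and keratin and junction genes mostly to the left.

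By function, the brightest part of the profile was the machinery of protein synthesis, followed by cytoskeleton, energy metabolism, stress and metal-binding proteins and extracellular matrix. Of 19 lists of genes grouped by function, 18 had a larger measured share than all genes (52.0%), and 9 were measured in every member on the array. The exception was the list of cytokines and chemokines, with 12 of 24 measured. Most of these lists hold genes that nearly all cells express.

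Cytoplasmic ribosomal proteins, the structural proteins of the ribosome, had 77 of 80 members measured, and the median member stood at percentile 99.5 of all 21154 genes, whose own median is by definition the middle of the ranking. Rps14, of the small subunit, had a level of 10.12 on array 1 and 9.18 on array 2. Rps20 reached 10.08 on array 1 and 8.84 on array 2. Rpl41, a very short protein of the large subunit, reached 10.05 on array 1 and 8.72 on array 2. All of these were brighter on array 1. Rpl39l, Rpl3l and Rpl10l were not measured on both arrays, and all 3 are copies known for expression restricted to testis or muscle. The 20 translation factors were all measured, with a median percentile of 96.8. Tpt1, the translationally controlled tumour protein, stood at 10.10 on array 1 and 9.75 on array 2, with a mean of 9.93 ± 0.25 (SD, n = 2). Eef1a1, which delivers aminoacyl-tRNA to the ribosome, stood at 7.81 on array 1 and 7.79 on array 2.

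The cytoskeleton list was measured in full, 30 of 30 genes, with a median percentile of 97.8. Cytoplasmic actin Actb had 8.99 on array 1 and 9.42 on array 2, and Actg1, the other cytoplasmic actin, 8.58 on array 1 and 9.35 on array 2. Tmsb4x, which binds monomeric actin, had 8.36 on array 1 and 7.17 on array 2. All 16 glycolysis genes were measured, led by Gapdh at 8.16 on array 1 and 7.80 on array 2 and by Aldoa, the aldolase of glycolysis, at 7.54 on array 1 and 7.71 on array 2. Oxidative phosphorylation, the electron transport chain and ATP synthase, had 80 of 83 members measured. Cox6a1, a subunit of cytochrome c oxidase, reached 8.68 on array 1 and 7.51 on array 2. The 3 members not measured on both arrays were Cox8b, Cox8c and Cox7b2, tissue-restricted forms of widely expressed subunits. Ribosomal protein, actin and Gapdh transcripts have many near-identical copies in the mouse genome, so how much of a signal belongs to the named gene is uncertain.

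Ferritin, antioxidant and detoxification genes were measured in 22 of 22 cases, with a median percentile of 97.1. The ferritin light chain Ftl1 stood at 9.84 on array 1 and 9.95 on array 2 and the heavy chain Fth1 at 9.70 on array 1 and 9.18 on array 2. The metallothioneins, small proteins that bind zinc and copper, were also among the 40 brightest genes. Mt1 had 10.43 on array 1 and 9.15 on array 2 by its brighter probe, and Mt2 had 10.20 on array 1 and 8.51 on array 2. By these probes both were more than 1 unit higher on array 1, while the ferritins differed less. The other Mt1 probe had 2.66 on array 1 and 2.72 on array 2. Heat shock proteins and chaperones were measured in 23 of 23 cases. Ppia, the cyclophilin that is the target of ciclosporin, had 9.64 on array 1 and 8.79 on array 2. The small heat shock protein Hspb1 had 7.63 on array 1 and 8.88 on array 2 and was the member of the 4 brightest in its list with the higher value on array 2 by more than 1 unit.

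Lysosomal genes and proteases were measured in 18 of 18 cases. Ctsl, the cathepsin whose product shapes self peptides in cortical thymic epithelium, stood at 7.92 on array 1 and 8.30 on array 2, with a mean of 8.11 ± 0.27 (SD, n = 2). Ctsd, another cathepsin, stood at 7.00 on array 1 and 7.35 on array 2. Annexins, galectins and S100 proteins, which bind calcium, membranes or sugars, were measured in 18 of 18 cases. Anxa1 had 8.30 on array 1 and 8.59 on array 2, and Lgals1 had 8.77 on array 1 and 7.19 on array 2. The extracellular matrix list was measured in 27 of 27 cases with a median percentile of 96.5, and its brightest members are given with the fibroblast markers, since the lists share them.

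**Figure D2:**
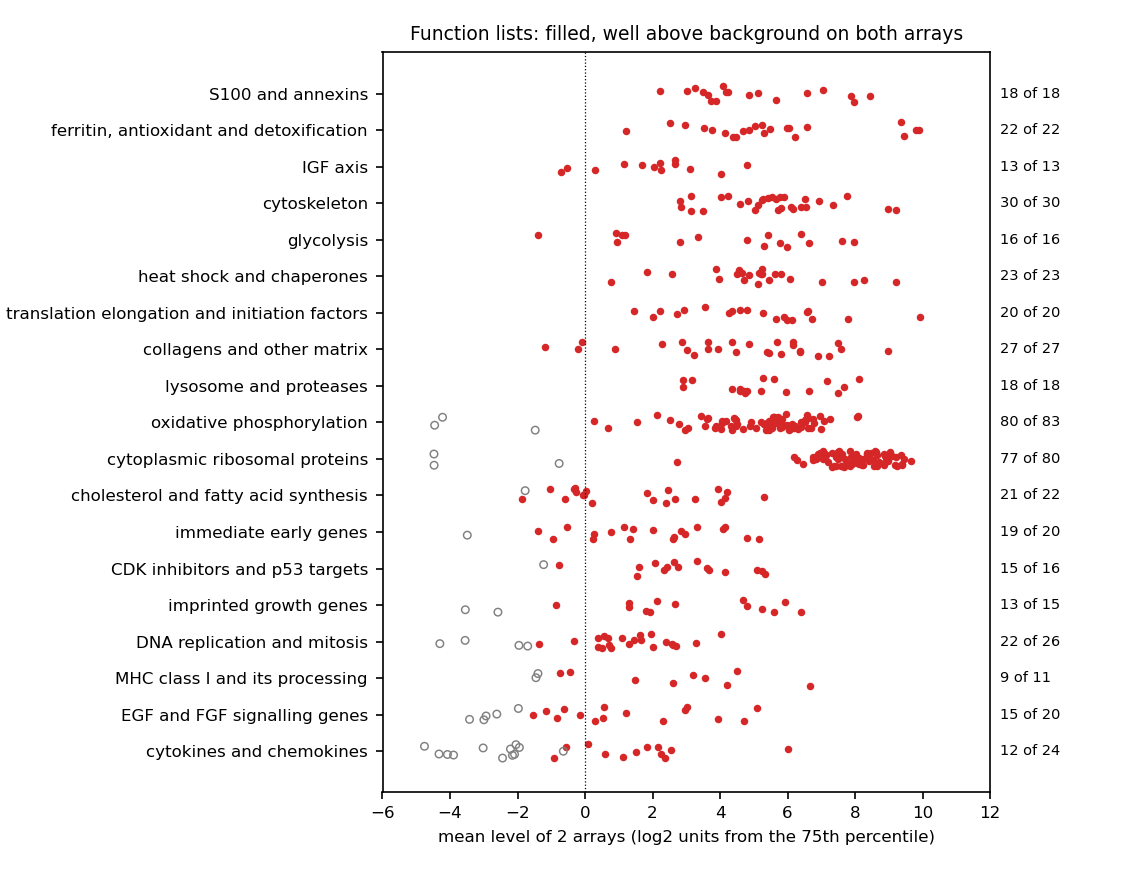
Mean level of the 2 arrays for each gene of the 19 function lists, in log2 units from the 75th percentile, 1 point per gene. Filled points were well above background on both arrays, open points were not, and the count at the right gives filled points of all genes on the array. Most ribosomal protein genes lie in a band above 6 units.

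Growth control was represented from several sides. The imprinted growth genes, most of which are active from the copy of 1 parent only, had 13 of 15 members measured. Dlk1, a Notch-ligand relative that marks fetal and progenitor cells, stood at 7.26 on array 1 and 4.59 on array 2, a difference between the arrays of 2.67. Cdkn1c, an imprinted inhibitor of cyclin-dependent kinases, stood at 5.30 on array 1 and 5.20 on array 2, with a mean of 5.25 ± 0.07 (SD, n = 2). Igf2, the fetal insulin-like growth factor, stood at 3.45 on array 1 and 1.89 on array 2, and its clearing receptor Igf2r at 4.54 on array 1 and 5.07 on array 2. Phlda2 was not well above background on either array, and Peg10 was so on array 1 alone. All 13 genes of the insulin-like growth factor axis were measured, among them the binding protein Igfbp5 at 3.35 on array 1 and 4.69 on array 2.

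Both arrays carried transcripts of dividing cells together with inhibitors of division. Of 26 genes of DNA replication and mitosis, 22 were measured, with a median percentile of 70.1. Pcna, the sliding clamp of replication, had 4.27 on array 1 and 3.81 on array 2. Mcm6, of the replicative helicase, had 3.67 on array 1 and 2.92 on array 2. Birc5, a mitotic protein, had 3.50 on array 1 and 1.74 on array 2 by its brightest probe. Its other probes averaged 0.24 and -0.84, the last not measured on both arrays. Cdc6 and Aurkb were not well above background on either array. The inhibitors of cyclin-dependent kinases and the p53 targets were measured in 15 of 16 cases with a median percentile of 86.4. Cdkn1a, p21, stood at 4.75 on array 1 and 5.95 on array 2 by its brighter probe, while its other probe averaged 0.33. Mdm2, the p53 ubiquitin ligase and itself a p53 target, stood at 4.74 on array 1 and 5.43 on array 2. Cdkn2b, p15, stood at 3.95 on array 1 and 4.35 on array 2 by its brighter probe, its other probe averaging 2.2. Each of these 3 was higher on array 2 on this scale, a direction that the list's median (-0.31) lost under another background correction (0.06), whereas all 22 replication and mitosis genes were higher on array 1 and their median kept its sign.

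Components of the pathways fed by the medium were also read. Of 20 genes of epidermal and fibroblast growth factor signalling, 15 were measured. The receptor Fgfr1 stood at 4.82 on array 1 and 5.39 on array 2. The receptor Egfr stood at 3.25 on array 1 and 2.82 on array 2. Each is given by its brightest probe. The other probes averaged 2.52 and 1.47 for Fgfr1 and 0.93 and 0.39 for Egfr. Dusp6 and Spry1, feedback inhibitors that the ERK pathway induces, stood at 4.49 on array 1 and 4.92 on array 2 and at 3.70 on array 1 and 4.16 on array 2 in that order. Tgfa, Fgf2, Btc and Erbb3 were not well above background on either array. Immediate early genes, the first to respond to growth factors and to handling of cells, were measured in 19 of 20 cases. Jund had 4.79 on array 1 and 5.50 on array 2, Klf6 had 4.29 on array 1 and 5.29 on array 2, and Egr1 had 3.85 on array 1 and 4.45 on array 2, each higher on array 2. Cholesterol and fatty acid synthesis had 21 of 22 genes measured, led by the desaturase Scd2 at 5.11 on array 1 and 5.48 on array 2.

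Antigen presentation of class I was measured in 9 of 11 cases. B2m, the light chain of class I molecules, had 7.21 on array 1 and 6.11 on array 2, and the heavy chains H2-K1 and H2-D1, which belong to a family of similar sequences, had 4.62 on array 1 and 4.37 on array 2 and 4.40 on array 1 and 3.99 on array 2. Among cytokines and chemokines the brightest was Ccl2, which attracts monocytes, at 7.19 on array 1 and 4.83 on array 2. Cxcl1, which attracts neutrophils, had 3.23 on array 1 and 1.49 on array 2. Both were more than 1 unit higher on array 1. Another 7 members of this list were above background on array 1 alone.

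By lineage, the measured markers pointed to epithelium and to fibroblasts or mesenchyme before any other cell type. Of 22 lists of lineage markers, 8 had a larger measured share than all genes (52.0%), and these were epithelial keratins and surface proteins, fibroblasts and mesenchyme, epithelial junctions, thymic epithelium, adipocytes, parathyroid, macrophages, and smooth muscle with pericytes. Smooth muscle with pericytes, at 58.3%, was near the share of all genes. The other 14 lists lay below it.

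**Figure D3:**
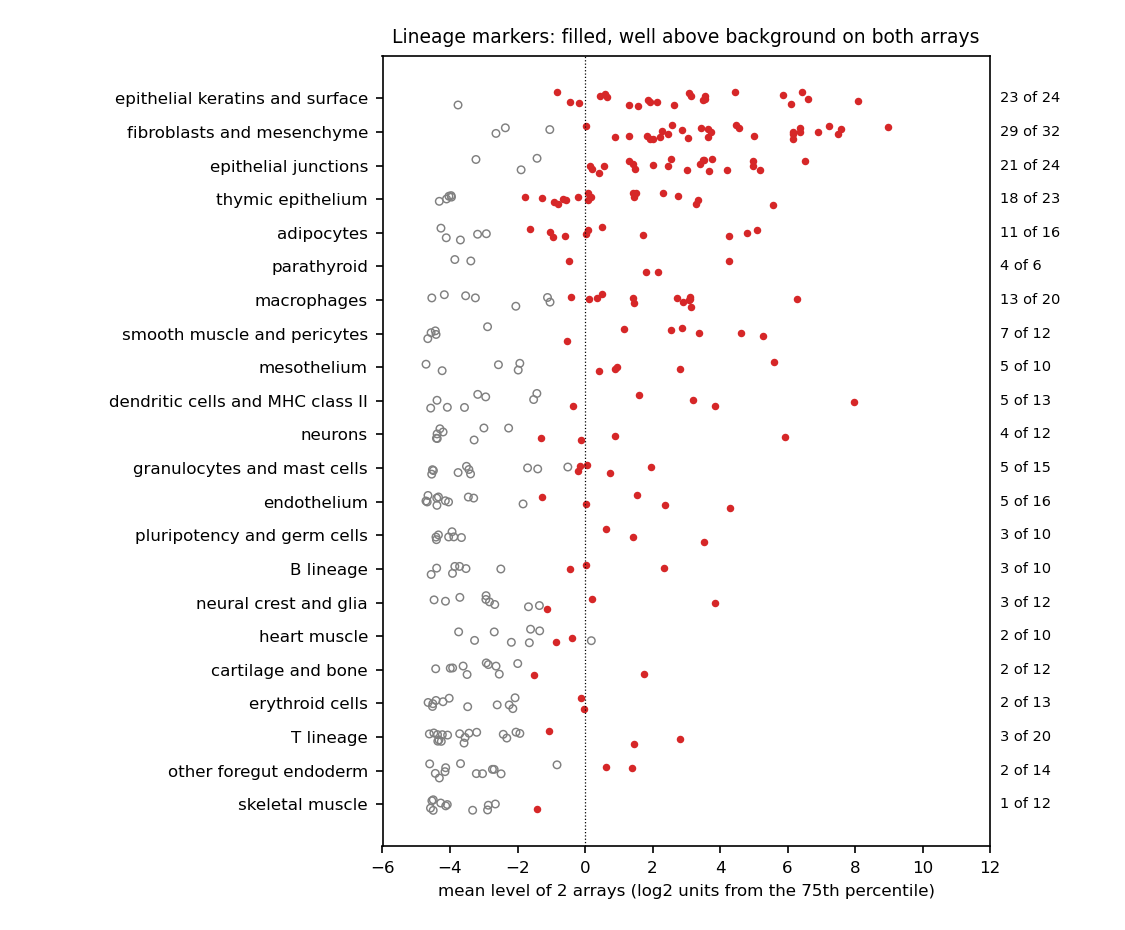
Mean level of the 2 arrays for each marker of the 22 lineage lists, in log2 units from the 75th percentile, 1 point per gene. Filled points were well above background on both arrays, open points were not, and the count at the right gives filled points of all markers on the array. Keratin and fibroblast markers are nearly all filled, and lymphoid, muscle and cartilage markers mostly open.

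The keratins and other surface markers of epithelium were measured in 23 of 24 cases, with a median percentile of 83.9. Krt18, the acidic keratin of simple epithelium, stood at 7.94 on array 1 and 8.23 on array 2, with a mean of 8.09 ± 0.20 (SD, n = 2). Its partner Krt8 stood at 5.86 on array 1 and 6.36 on array 2. Krt5, the basic keratin of basal epithelium, stood at 6.08 on array 1 and 7.16 on array 2 by its brighter probe, at percentile 98.9, while its other probe averaged 1.48. Keratins of simple and of basal epithelium were both measured in the same RNA. Krt17, a keratin of basal and stressed epithelium, reached 5.44 on array 1 and 7.41 on array 2. Krt14, the usual partner of Krt5, had -0.57 on array 1 and -1.08 on array 2, below the 75th percentile on both arrays. Trp63, the transcription factor of basal epithelial progenitors, had 2.97 on array 1 and 4.16 on array 2. Epcam, a surface protein of thymic and other epithelium, had 1.62 on array 1 and 1.53 on array 2. Muc1 was not well above background on either array.

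The start sites of these keratin genes and of Foxn1 are shown because the first 3 are among the 4 brightest epithelial keratin and surface genes and the last to the transcription factor that defines thymic epithelium. Each run covers 250 bases before to 50 bases after the annotated start, from RefSeq on build GRCm38.p6, read 5′ to 3′ on the strand of the gene. Krt8 is at chr15:102004293-102004592 on the minus strand and Krt18 at chr15:102027966-102028265 on the plus strand of the same chromosome, Krt5 at chr15:101712856-101713155 on the minus strand, and Foxn1 at chr11:78386559-78386858 on the minus strand. Capitals mark matches on either strand to the TATA motif TATAAA, to the letters CCAAT, and to the GC box GGGCGG.
Krt8: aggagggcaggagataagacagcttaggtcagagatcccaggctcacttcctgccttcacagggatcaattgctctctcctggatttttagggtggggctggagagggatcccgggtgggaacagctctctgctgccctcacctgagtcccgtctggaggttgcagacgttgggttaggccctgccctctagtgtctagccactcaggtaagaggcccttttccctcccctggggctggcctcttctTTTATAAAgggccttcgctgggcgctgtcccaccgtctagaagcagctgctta
Krt18: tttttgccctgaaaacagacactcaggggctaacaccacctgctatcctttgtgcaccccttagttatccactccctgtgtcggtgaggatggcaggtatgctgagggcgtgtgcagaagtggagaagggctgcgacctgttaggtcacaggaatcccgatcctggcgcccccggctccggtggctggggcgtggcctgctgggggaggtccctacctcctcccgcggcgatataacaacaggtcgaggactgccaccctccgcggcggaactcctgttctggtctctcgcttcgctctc
Krt5: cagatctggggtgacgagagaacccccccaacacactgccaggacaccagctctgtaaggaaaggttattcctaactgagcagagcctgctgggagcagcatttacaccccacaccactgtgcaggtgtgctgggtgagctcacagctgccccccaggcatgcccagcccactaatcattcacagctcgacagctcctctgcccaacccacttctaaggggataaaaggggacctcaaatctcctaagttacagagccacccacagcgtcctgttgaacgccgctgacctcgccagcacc
Foxn1: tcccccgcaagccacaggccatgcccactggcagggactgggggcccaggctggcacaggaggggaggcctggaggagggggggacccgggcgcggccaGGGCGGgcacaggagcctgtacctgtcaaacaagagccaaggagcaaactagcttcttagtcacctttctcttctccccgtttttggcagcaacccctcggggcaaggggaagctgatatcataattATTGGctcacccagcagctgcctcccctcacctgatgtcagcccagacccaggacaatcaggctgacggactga
The Krt8 window holds TATAAA on both strands, as 2 overlapping matches. The windows of Krt18 and Krt5 hold none of the 3 motifs, and that of Foxn1 holds 1 CCAAT and 1 GGGCGG, the former on the opposite strand. Over all 32851 promoters in the table TATAAA occurred in 13.6%, CCAAT in 37.4% and GGGCGG in 35.7%. In the promoters of genes measured on both arrays GGGCGG occurred in 62.4% and TATAAA in 7.43%, against 25.2% and 19.6% in those of genes above background on neither array. For the 200 genes of highest signal, of which 152 had promoters in the table, the shares were 54.1% and 14.6%. A match describes the letters of the window and is no evidence that a factor binds there.

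Proteins of epithelial junctions and of the epithelial attachment to basement membrane were measured in 21 of 24 cases, with a median percentile of 84.8. Perp, a desmosomal protein, had 5.59 on array 1 and 7.43 on array 2. Pkp3, a desmosomal plakophilin, had 4.69 on array 1 and 5.25 on array 2. The levels on array 2 were the higher ones for both. Itga6, the integrin that anchors epithelium to laminin, differed less, with 4.81 on array 1 and 5.13 on array 2. Ocln and Jup were above background on array 1 alone, and Col17a1 on neither array.

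The markers that tell thymic from other epithelium covered a wide range of levels. The named transcription factors of the pharyngeal pouch and early thymus rudiment were all measured. Eya1 stood at 5.21 on array 1 and 5.95 on array 2, with a mean of 5.58 ± 0.53 (SD, n = 2) and at percentile 97.8. Pax1 stood at 3.16 on array 1 and 3.40 on array 2. The values of the 2 arrays lay within 1 unit of each other for both. Pax9 (1.47 on array 1 and 1.45 on array 2), Hoxa3 (1.23 on array 1 and 1.61 on array 2) and Tbx1 (-0.13 on array 1 and 0.49 on array 2) were dimmer and also measured. Pax9 is given by its brighter probe, while its other probe averaged -1.36 and was not measured on both arrays. Plet1, a surface protein of early thymic epithelial progenitors, had 2.41 on array 1 and 3.11 on array 2 by its brighter probe. Its other probe averaged -0.31.

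Genes of maturing and functional thymic epithelium ranged from measured to not above background. The chemokine Cxcl12 had 1.63 on array 1 and 1.42 on array 2. Foxn1 itself had -0.81 on array 1 and -0.50 on array 2, with a mean of -0.66 ± 0.22 (SD, n = 2) and at percentile 54.7. The chemokine Ccl25, which Foxn1 controls and which draws thymocyte progenitors, had 0.69 on array 1 and -0.53 on array 2 by the brighter of its probes, the other averaging -3.84, and the serine protease Prss16 of cortical epithelium had 0.44 on array 1 and -0.86 on array 2. Both were more than 1 unit lower on array 2. Il7, the cytokine that sustains thymocytes, had -0.23 on array 1 and -0.89 on array 2. Dll4, the Notch ligand that commits progenitors to the T lineage, Psmb11, the thymoproteasome subunit, Ly75, a cortical surface marker, and Aire and Fezf2, which drive self antigens in medullary epithelium, were not well above background on either array. In all, 18 of 23 markers of thymic epithelium were measured, and their median percentile of 58.9 was nearer to the middle of the ranking than that of the general epithelial lists. Set against its markers, the thymic label was met by most of the list, including Foxn1. The 5 members not above background were Dll4, Psmb11, Ly75, Aire and Fezf2.

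Markers of fibroblasts and mesenchyme were measured in 29 of 32 cases, with a median percentile of 91.7. Sparc, a matrix protein that binds collagen, stood at 9.12 on array 1 and 8.81 on array 2, with a mean of 8.97 ± 0.22 (SD, n = 2) by its brightest probe, while its other probes averaged 4.63 and -1.06, the last not measured. Col1a2, a chain of fibrillar type I collagen, stood at 7.87 on array 1 and 7.30 on array 2, and Col1a1, its other chain, at 6.49 on array 1 and 5.84 on array 2. The proteoglycan Dcn, decorin, stood at 7.87 on array 1 and 6.58 on array 2. All of these were higher on array 1, while Fn1, fibronectin, was close to level at 7.46 on array 1 and 7.53 on array 2. Pdgfra, the receptor that marks thymic mesenchyme, had 3.73 on array 1 and 3.17 on array 2. Ogn and Dpt were above background on array 1 alone, and Tcf21 on neither.

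Neighbouring mesenchymal lists were measured in part. Of 12 markers of smooth muscle and pericytes, 7 were measured, led by Mcam at 4.94 on array 1 and 5.60 on array 2 and by Tagln, an actin-binding protein of contractile cells, at 4.57 on array 1 and 4.66 on array 2. Mcam is given by its brighter probe, and its other probe averaged -0.69. Des, Cnn1, Lmod1, Actg2 and Myh11 stayed below that call on both arrays. Of 16 adipocyte markers, 11 were measured. Lpl, lipoprotein lipase, had 5.51 on array 1 and 4.66 on array 2, and Fabp4, a fatty acid carrier, had 5.20 on array 1 and 3.33 on array 2. Pparg, the transcription factor of fat cell formation, had 1.71 on array 1 and 1.70 on array 2. The markers of mature fat cells Adipoq, Retn, Cfd, Plin1 and Lep were not well above background on either array. Msln, mesothelin, which also occurs on some epithelia, had 4.98 on array 1 and 6.23 on array 2, and 5 of 10 mesothelial markers were measured, close to the 52.0% of all genes.

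Of 6 parathyroid markers, 4 were measured. The parathyroid gland arises from the same pharyngeal pouch as the thymus. Pth, parathyroid hormone, had 5.31 on array 1 and 3.21 on array 2, a level at percentile 94.8, and Chga, chromogranin A of endocrine granules, had 2.69 on array 1 and 1.65 on array 2. Gcm2, the factor that specifies the gland, and Casr, its calcium sensor, were not well above background on either array.

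Among blood cells, macrophage markers were the most complete. Of 20 markers 13 were measured, with a median percentile of 65.1. Fcer1g, an adaptor of Fc receptors, had 3.83 on array 1 and 2.45 on array 2. Lyz2, lysozyme, had 3.59 on array 1 and 2.64 on array 2. Cd68, a lysosomal protein of macrophages, had 3.27 on array 1 and 2.93 on array 2. All 3 were higher on array 1. Itgam read much brighter at 6.22 on array 1 and 6.35 on array 2, but its 3 probes spanned from that level down to -2.58 on average. Neither array had Cx3cr1, Fcgr1, Spi1 or Cd163 well above background. Class II and dendritic cell markers were measured in 5 of 13 cases. H2-Ab1 had 4.56 on array 1 and 3.14 on array 2, H2-Eb1 had 3.76 on array 1 and 2.65 on array 2 and Cd74, the invariant chain, had 2.76 on array 1 and 0.46 on array 2. These class II genes were all more than 1 unit higher on array 1, and their regulator Ciita was above background on neither.

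Lymphoid markers were largely absent above background. Of 20 T lineage markers 3 were measured, and these were Cd4 (2.81 on array 1 and 2.83 on array 2), Cd3e (1.02 on array 1 and 1.92 on array 2) and Lck (-0.87 on array 1 and -1.25 on array 2). The second probe for Cd4 averaged -3.93. Ptprc, the CD45 of all white blood cells, Cd8a, Cd8b1, Cd3d, Cd3g, Cd2, Zap70, Il7r, Tcf7, Ptcra, Rag1 and Rag2 were not well above background on either array, and Dntt, Bcl11b, Lat and Cd5 were so on array 1 alone. The B lineage list had 3 of 10 genes measured, the granulocyte and mast cell list 5 of 15 and the erythroid list 2 of 13. Read from array 1 by itself, the T lineage list had 7 measured, the granulocyte and mast cell list 8, the erythroid list 5 and the dendritic cell and class II list 8. The call reached lower levels on array 1. Of the T lineage genes called there alone, Dntt, Lat and Cd5 had the higher level on array 2, and Bcl11b on array 1. Hba-a2, an alpha globin, had 0.65 on array 1 and -0.72 on array 2, whereas Alas2, Klf1 and Gata1 were above background on neither array.

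Endothelial markers were measured in 5 of 16 cases. Kdr, a receptor for vascular endothelial growth factor, led at 3.95 on array 1 and 4.66 on array 2 by its brighter probe. Its other probe averaged -3.37 and was not measured. Flt1, a relative of Kdr, had 2.51 on array 1 and 2.21 on array 2. Cdh5, Cldn5, Tie1, Tek and Erg were not well above background on either array, and Pecam1 and Emcn were so on array 1 alone. Neurons had 4 of 12 markers measured and neural crest with glia 3 of 12, or 6 when array 1 was read by itself. Snap25, a synaptic protein, read at 5.86 on array 1 and 5.98 on array 2 from a single probe, while Dcx, Syt1, Stmn2 and Rbfox3 were above background on neither array. Skeletal muscle had 1 of 12 markers measured, heart muscle 2 of 10, cartilage and bone 2 of 12, other foregut endoderm 2 of 14, and pluripotent and germ cells 3 of 10. In the heart list a further 6 markers, and in the foregut list a further 5, were above background on array 1 alone, as were 2 of the cartilage and bone list and 1 of the skeletal muscle list. Sox2, of the foregut and of stem cells, was on neither.

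The very top of the signal ranking was occupied by genes whose probes did not read alike. Among the 40 brightest genes with proper symbols, 25 had several probes, and in 20 of these the probe means spanned more than 2 units. Glrx2, a mitochondrial glutaredoxin and first in the ranking, had 10.81 on array 1 and 11.24 on array 2 by its brightest probe, and its dimmest averaged -3.47. Slc10a1, a bile acid transporter of liver, had 10.23 on array 1 and 10.67 on array 2 by one probe and a mean of -4.49 by the other. Elk1, a transcription factor, had 10.21 on array 1 and 10.61 on array 2, with its other probe at -2.62. For such genes the level depends wholly on the probe chosen. Kctd14, Med16, Ttc38 and Zfp628 behaved likewise, with ranks of 2, 3, 6 and 7.

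In a view chosen after the values were seen, genes were kept only where all their probes were measured and lay within 2 units of each other. Of the 40 brightest genes, 20 stood in that view's first 40, and ribosomal proteins made up 23 of those 40 instead of 12. Exosc2, an RNA exosome subunit with a single probe, led that view at 10.23 on array 1 and 10.31 on array 2. Rn4.5s, a small noncoding RNA, followed at 9.81 on array 1 and 10.18 on array 2, then Tpt1, Rps14, Rps20 and Fth1. Mgp, matrix Gla protein, which fibroblasts and cartilage secrete, also belonged to it at 9.06 on array 1 and 8.23 on array 2. A single probe, as in 25 of those 40 genes, cannot disagree with itself. Over all measured genes with several probes, 2250 of 3861 (58.3%) had probes that spanned more than 2 units. In the lineage lists, probes of a gene spanned more than 2 units for 4 keratin and surface genes, 3 junction genes, 3 fibroblast genes and 3 thymic epithelial genes on the array, among them Krt5, Sparc, Ccl25 and the desmosomal Dsp, whose other probe averaged -2.41. Siglech, of dendritic cells, read 7.93 on array 1 and 7.99 on array 2 while its other probe averaged -4.44, and Kdr and Nanog also had an unmeasured probe.

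**Figure D4:**
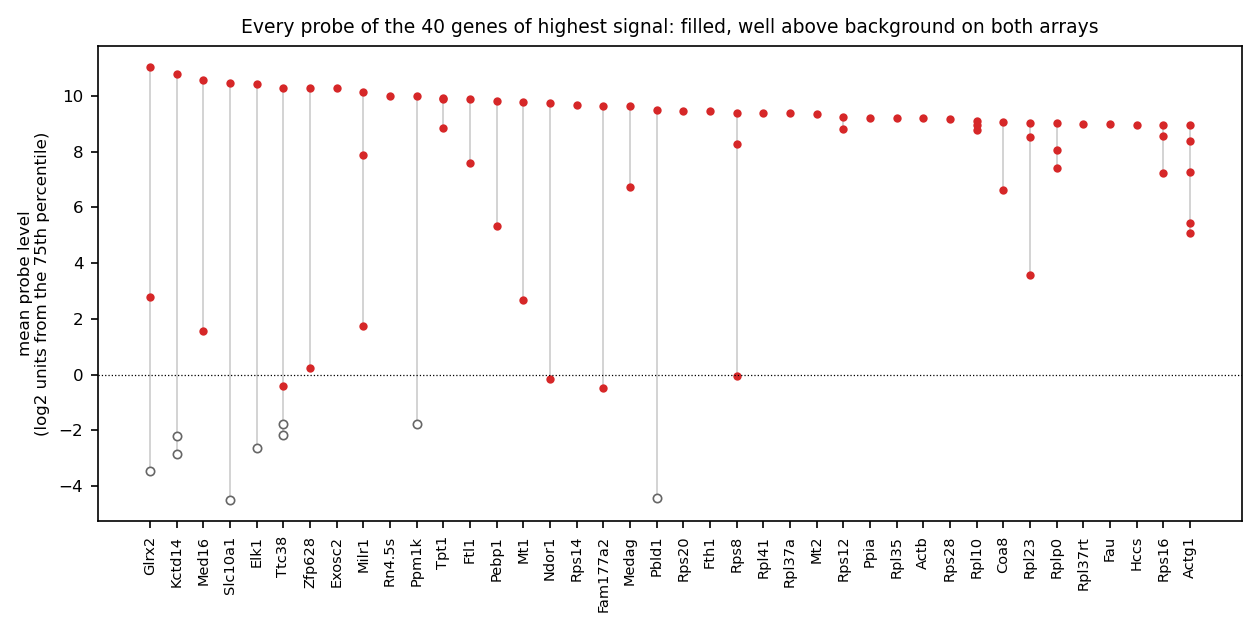
Mean level of the 2 arrays for every probe of the 40 genes of highest signal, in log2 units from the 75th percentile, with a line joining the probes of a gene. Filled points were well above background on both arrays and open points were not. For Glrx2, Slc10a1 and Elk1 the probes lie more than 5 units apart, and for Tpt1 they lie close together.

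The differences between the 2 arrays were of one sign within several lists, and whether they arose in the cultures or in the handling of the RNA cannot be told apart. For the measured keratins and epithelial surface genes the median of array 1 minus array 2 was -0.86, with 20 of 23 higher on array 2, and for junction genes -0.90, with 20 of 21 higher on array 2. For fibroblast markers it was 0.65, with 26 of 29 higher on array 1. The median over all 11010 measured genes was -0.04, with 5077 higher on array 1 and 5933 higher on array 2. Under the other scalings and probe rules the 3 medians kept their signs, from -1.07 to -0.35, from -0.91 to -0.35 and from 0.46 to 0.97, while the median of all genes moved between -0.10 and 0.16. More than 1 unit of difference was seen in 11 of the 23 keratin and surface genes, all higher on array 2 against 3.98% of all genes. The same size of difference was seen in 10 of the 29 fibroblast genes, all higher on array 1 against 6.72% of all genes. Krt15, a keratin of basal progenitors, was an example at 1.43 on array 1 and 3.85 on array 2, and Col5a1, a fibrillar collagen chain, another at 4.54 on array 1 and 2.76 on array 2.

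Other groups differed in the same direction as the fibroblast markers. Ribosomal proteins had a median difference of 1.18, with 76 of 77 higher on array 1, which shrank to 0.35 after quantile normalization and 0.37 in the deposited value table. Oxidative phosphorylation had 1.22, with 71 of 80 higher on array 1 and 0.76 as the smallest median under another scaling. Replication and mitosis genes had 0.76, with 22 of 22 higher on array 1. Macrophage markers had 0.72, with 10 of 13 higher on array 1. Immediate early genes went the other way with -0.71, 16 of 19 being higher on array 2. All of these kept their sign under each scaling. Some lists had medians that changed sign with the scaling or probe rule, so no direction is given for them. By function these were translation factors, cytoskeleton, glycolysis, chaperones, lysosome, S100 and annexins, the insulin-like growth factor axis and inhibitors of cyclin-dependent kinases. By lineage they were thymic epithelium, adipocytes, neurons, neural crest and glia, T lineage, granulocytes and mast cells, and pluripotency and germ cells.

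**Figure D5:**
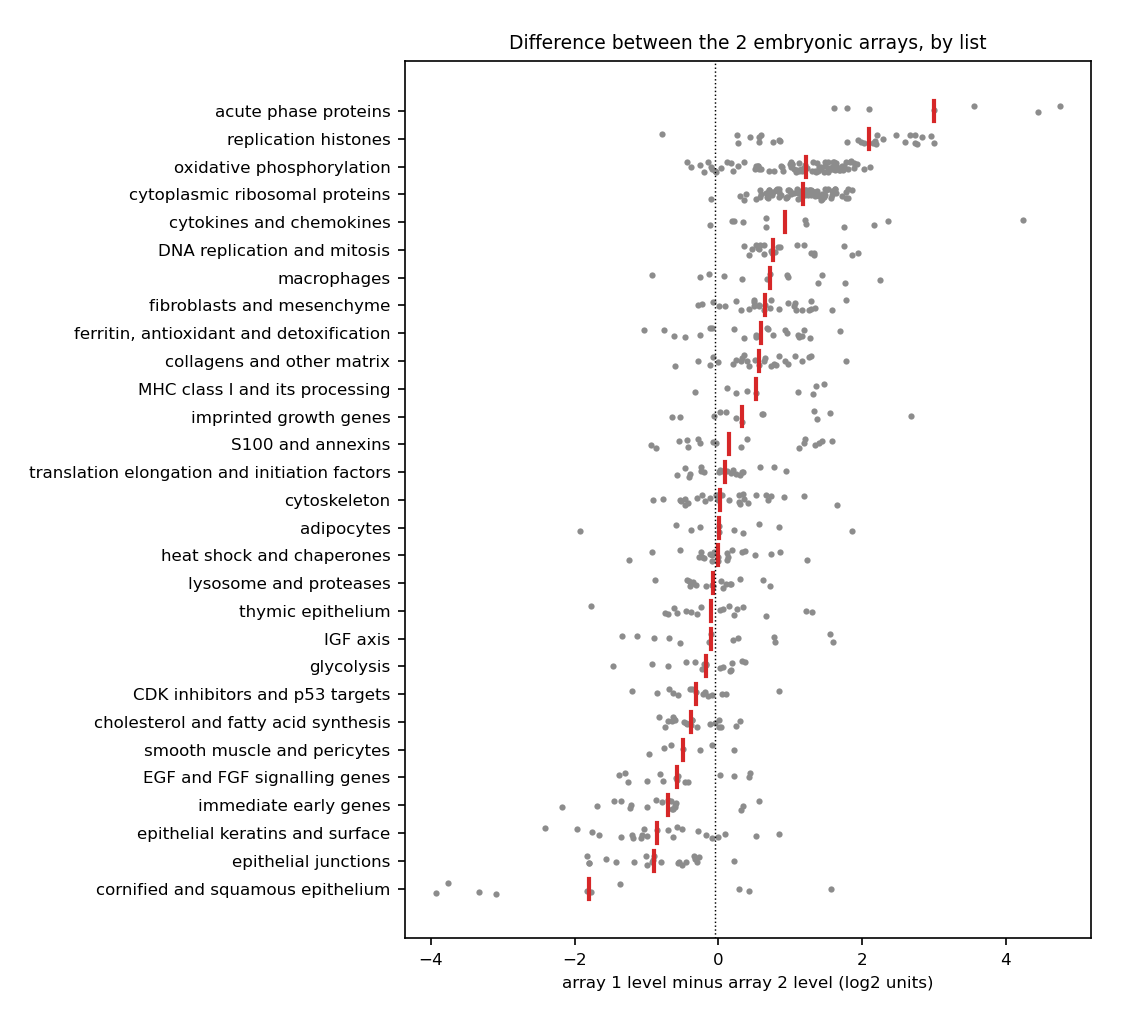
Level on array 1 minus level on array 2, in log2 units, for each measured gene of the lists shown, with a red bar at the list's median. Acute phase, histone and oxidative phosphorylation genes lie to the right (higher on array 1) and cornified epithelium, junction and keratin genes to the left.

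Among genes measured on both arrays, the largest single differences pointed to 4 small groups, which were listed after these values were seen. The 2404 genes above background on array 1 alone and the 46 on array 2 alone were not ranked here. Afp, not measured on both arrays, had 1.71 on array 1 and -3.36 on array 2, a wider gap than any ranked. Acute phase proteins, secreted in inflammation, included Saa1 at 8.42 on array 1 and 3.66 on array 2, Saa3 at 10.14 on array 1 and 5.69 on array 2 and Lcn2 at 9.12 on array 1 and 6.13 on array 2. Of 12 members 7 (58.3%) were measured, against 52.0% of all genes. All 7 were higher on array 1, by a median of 2.99. The chemokines Cxcl5, at 3.96 on array 1 and -0.27 on array 2, and Ccl6, at 4.52 on array 1 and 0.55 on array 2, and the interferon-inducible Ifitm1, at 4.54 on array 1 and 0.76 on array 2, differed in the same direction. Of 9 genes of lung secretion only 3 (33.3%) were measured, all higher on array 1. The surfactant protein Sftpd had 2.97 on array 1 and -1.49 on array 2 by its brighter probe. Its other probe had 1.52 on array 1 and -2.29 on array 2 and was not measured on both arrays. The airway protein Bpifa1 had 5.81 on array 1 and 2.79 on array 2. Sftpc, Sftpb and Sftpa1 were above background on neither array.

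Among the 10 largest differences in genes measured on both arrays, 4 genes were higher on array 2. Cdsn, the corneodesmosin of cornified epithelium, had -1.44 on array 1 and 2.49 on array 2, and Psca, a surface protein of stratified and glandular epithelium, had -0.39 on array 1 and 3.37 on array 2. Of 16 genes of cornified and squamous epithelium 10 (62.5%) were measured, against 52.0% of all genes. Of these 10, 7 were higher on array 2 and 3 on array 1, and the list's median difference was -1.80. Tg, thyroglobulin, had -1.42 on array 1 and 2.67 on array 2, and Calca, the calcitonin gene of thyroid C cells, had -1.01 on array 1 and 2.91 on array 2. They were the only 2 of 8 genes of this list measured on both arrays. Pax8 was above background on array 2 alone, Calcb on array 1 alone, and Nkx2-1, Tshr and Slc5a5 on neither array. Saa1 has a close copy in Saa2, so its signal may include that gene. Total signal differed between the arrays as well, with 75th percentiles of 126 and 61.5, and its part in these differences was not tested.

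The histone genes that are expressed with replication, also listed after their values were seen, had 28 of 43 members measured (65.1%, against 52.0% of all genes). Their median difference was 2.09, with 27 of 28 higher on array 1. H2ac12, a histone H2A gene, had 8.87 on array 1 and 6.68 on array 2. H4c4, a histone H4 gene, had 8.32 on array 1 and 5.49 on array 2. Members of this family are nearly identical, and many of their transcripts lack a poly(A) tail, so that their signal depends on how RNA was primed for labelling.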

How the data were processed

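RNA of 2 embryonic thymosphere samples was measured on 1-colour Agilent arrays. Per the file headers, the deposited intensity of each spot came from Agilent Feature Extraction 10.7.3.1, with background subtraction and spatial detrending done per array. No normalization between arrays had been applied to them. A value table, also deposited as linear intensity, served only as an alternative, and how it was made is not given in the sources used.

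From these, each processed signal was divided by the array's 75th percentile and log2-transformed with Python 3.11.15, pandas 2.3.3 and numpy 2.4.6. Control spots and outlier spots (120 on array 1, 95 on array 2) were left out, and repeated spots averaged. Probes were named through RefSeq accessions without version, and 28026 of 55681 (50.3%) had a symbol. A gene took its brightest probe among those well above background on both arrays, which lifts genes with several probes. Percentiles are over 21154 genes. H19 and Ccl21a were not matched and are not analysed here. The arrays' number limits the precision. The SD is over the 2 arrays.

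Lists and genes were chosen with earlier results of these data known. Named were the 40 brightest genes with proper symbols (in part, by group). In each list the 4 brightest and the unmeasured members (most of them) were named. The 10 largest differences between arrays, among genes measured on both, and a few fixed markers were also named. Other named genes, and the lists for olfactory receptors, Hox genes, histones, acute phase, cornified epithelium, lung, thyroid and sex-linked genes, were picked after their values were seen. The ranking and the number of measured genes were tested on simulated data with a single probe per gene. The choice of probe and the list counts were not tested in this way. Alternatives were normexp (limma 3.58.1, offset 50) on the median spot signal, because the files used here hold no mean signal, median centring, quantile normalization, the deposited table, other probe rules, outlier spots kept, detection on either array, and each array alone. A few members of the lists are not reported here by name.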

Additional observations from a re-analysis of the deposited data

Results flagged for a closer look

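Probes without a gene symbol lie outside the gene-level description, and 5280 of 27655 of them (19.1%) were well above background on both embryonic arrays. They made up 45 of the 100 brightest probes. The brightest of all non-control probes was one of them, at 11.03 on array 1 and 11.90 on array 2. What these probes detect is not analysed here, so the functions and lineages described cover only the named share of the signal.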

How the results depend on the processing

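The correlation between the arrays was 0.954 and moved to 0.957 with normexp background correction, 0.958 in the deposited value table, 0.955 with the mean of a gene's probes, 0.951 with detection on either array and 0.949 with the dimmest probe. With the mean of a gene's probes, 70 of the 100 brightest genes were retained. When a gene was read by its dimmest probe and every probe had to be measured, an alternative chosen after seeing the data, 60 of the 100 brightest genes were retained. Leaving out either array gave 11057 to 13427 measured genes, 87 to 88 of the 100 brightest genes retained, 18 to 19 function lists and 9 lineage lists above the share of all genes. Of 410 counts over lists and settings, 24 left the range of 1.5 times the reported count, 11 of them where detection on either array sufficed and 10 without array 2, where heart muscle went from 2 to 8, other foregut endoderm from 2 to 7, cytokines from 12 to 19 and neural crest from 3 to 6. Gene percentiles were less stable. Of 570 percentiles over named genes and settings, 136 moved by more than the SD of the 2 arrays' own percentiles. Of these, 41 moved with the mean of a gene's probes and 47 with its dimmest probe. With the dimmest probe, Krt5 went from percentile 98.9 to 81.9 and single-probe Foxn1 from 54.7 to 63.4. No paired analysis was possible because no groups were compared. Only 2 arrays, unequal in signal, bear on each value.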

Other observations

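Transcripts of body position and sex were read from the same arrays, from lists chosen after values were seen. Of 39 Hox genes, which set position along the body axis, 5 (12.8%) were measured on both arrays, against 52.0% of all genes. These were all from groups 1 to 4 of the clusters. Hoxa3, which the third pharyngeal pouch needs to form a thymus, was the brightest of them at 1.23 on array 1 and 1.61 on array 2. Hoxb2 had 0.37 and 0.10, and Hoxb4 had 0.24 and 0.01. A further 13 were above background on array 1 alone.

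Both arrays carried Xist, expressed from the inactive X chromosome of female cells, at 0.05 and 0.62, and Y-linked Eif2s3y at 1.59 and 1.17 and Ddx3y at 0.03 and -1.10. Neither array had Uty or Kdm5d well above background. Among the usual reference genes, Hprt had 4.27 on array 1 and 4.03 on array 2, and Tbp had 0.31 and 0.14.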
